A study of Mus musculus with 18 samples.

Results

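Hepatic glucose metabolism was examined through 33 genes of glycolysis and gluconeogenesis, chosen by gene name from the 54532 genes of the RNA-seq tables, in livers of fasted mice fed a vitamin B2-deficient or control diet. The 33 genes fell into 7 that serve gluconeogenic steps, 9 that serve steps shared by both directions, 7 of glycolytic steps, 7 that bring substrate and reducing equivalents to the pathway, and 3 that control it. All 33 were found in both tables, and 31 passed a filter of a mean FPKM (fragments per kilobase of gene, relative to library size) of at least 0.5 in each of them. The hexokinase gene Hk1 (0.208 to 0.356 FPKM in Ctrl livers) and the platelet phosphofructokinase gene Pfkp (0.146 to 0.2497 FPKM) did not pass.

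Glycolysis splits glucose into pyruvate, and gluconeogenesis rebuilds glucose from pyruvate, lactate, glycerol and amino acids. Most enzymes of the chain work in both directions, whereas a few steps run one way and need a separate enzyme for each direction: hexokinases against glucose-6-phosphatase, phosphofructokinase against fructose bisphosphatase, and pyruvate kinase against pyruvate carboxylase with phosphoenolpyruvate carboxykinase. During a fast the liver is the main maker of glucose. Glucagon, glucocorticoids and low insulin raise transcription of the gluconeogenic genes through factors that include CREB, FOXO1 and the coactivator PGC-1α, and malate and aspartate carry carbon and reducing equivalents out of the mitochondria.

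Male wild-type C57BL/6J mice entered the diets at 4 wk of age. The Ctrl group (5 livers) ate the control diet and the B2D group (5 livers) the deficient diet for 1 month, and all were fasted overnight. The Ctrl+FF and B2D+FF groups (4 livers each) ate the same diets for 9 wk, received fenofibrate, an agonist of the nuclear receptor PPARα, by gavage at 300 mg per kg from week 7 to week 9, and after an overnight fast were given it again 2 hours before harvest. No group had fenofibrate at 1 month or was without it at 9 wk, so drug, time on the diet and sequencing table cannot be told apart. Each library was 1 mouse. Livers of a group are counted from 1 by mouse number, and each list of values follows that count. Libraries held from 15320729 to 21898502 reads, with B2D+FF (16947517 to 21898502) deeper than Ctrl+FF (16290762 to 17386688). All 8 hepatocyte markers were detected in every group, and the liver label held. Their summed level was 33150 to 42330 FPKM in Ctrl, 33190 to 47690 in B2D, 21800 to 25140 in Ctrl+FF and 19520 to 22420 in B2D+FF. In whole tissue, fewer cells of a type and less RNA per cell cannot be told apart.

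In livers given fenofibrate, B2D raised 9 of the 31 members tested and lowered none. The called members were Mdh2, Eno1, Aldoa, Got1, Pgam1, Gpi1, Tpi1, Pgk1 and Pck1. They held 6 of the 9 genes of shared steps, 2 of the 7 shuttle and entry genes and 1 of the 7 gluconeogenic genes. None of the 5 glycolytic genes tested and none of the 3 control genes passed. Over all 11878 genes in that comparison, 2.24% were called higher and 2.21% lower. Among the 979 genes with a mean of at least 50 FPKM, 46 were called higher and 40 lower. The median difference of the members was 0.298 on the log2(FPKM + 1) scale, or 0.252 without Gapdh. It was 0.0128 over all genes tested and 0.0548 over the 979 genes with a mean of at least 50 FPKM. With each library rescaled to the same upper quartile, 366 genes were lower and 223 higher, against 263 and 266 with the values as deposited, and 8 members were called higher, Pck1 being lost.

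Without fenofibrate only Aldoc of the 31 members passed the test between B2D and Ctrl, and it was lower. Over all 11574 genes tested 0.769% were called higher and 1.94% lower, so that 1 lower member of 31 lay near the background. The median difference of the members was 0.0203 against -0.00132 over all genes. At an unadjusted p under 0.05, 2 members were higher and 3 lower, near the 8.24% and 10.1% of all genes. In livers given fenofibrate 14 were higher and 0 lower at that limit, against 11.3% and 9.93% of all genes. The 14 included Gapdh. Between B2D and Ctrl, voom on the recovered reads called 240 genes lower and 152 higher, against 224 and 89 in the main fit. A fit of all 4 groups called 441 lower and 286 higher between the same 2 groups. By role, the median difference with fenofibrate was 0.0897 for gluconeogenic, 0.514 for shared (Gapdh left out), 0.0698 for glycolytic, 0.329 for shuttle and 0.298 for control genes. Without fenofibrate the medians were -0.0888, 0.0605, 0.0321, 0.003 and 0.29 in the same order. Of the gluconeogenic genes 6 of 7 had a positive difference with fenofibrate and 1 of 7 without it. Over all genes tested the counts were 6269 of 11878 and 5768 of 11574. Among genes with a mean of at least 50 FPKM they were 588 of 979 with and 283 of 849 without fenofibrate. The median of those 849 genes was -0.108, near that of the gluconeogenic genes without fenofibrate. The plot of diet differences by role sets the comparisons side by side.

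**Figure D1:**
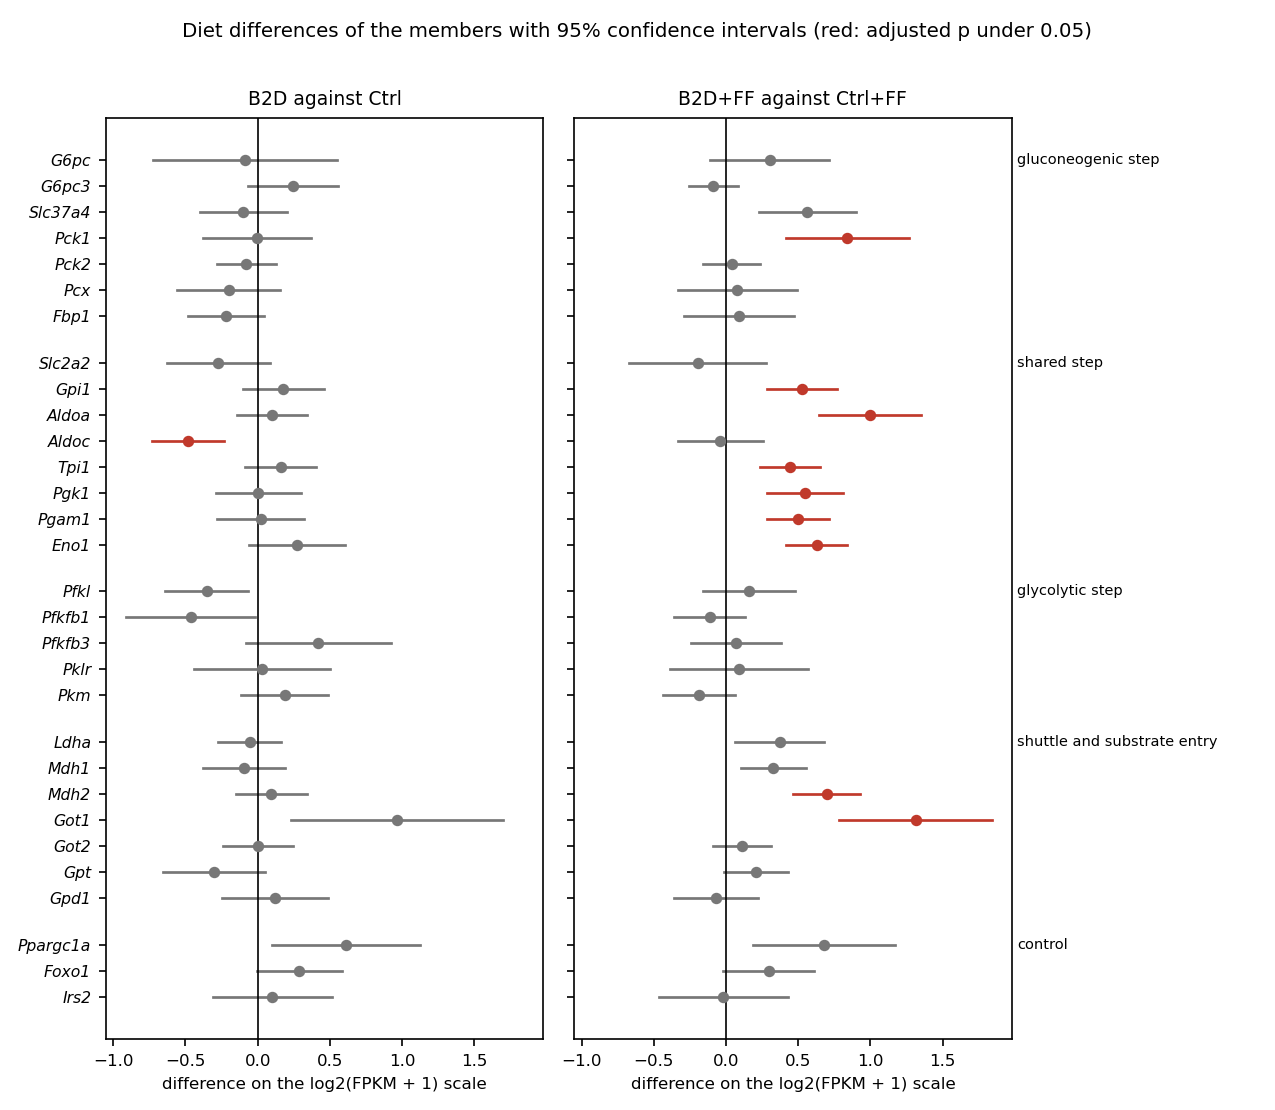
Difference between diets on the log2(FPKM + 1) scale (x axis) with its 95% confidence interval for 30 members grouped by role (y axis), B2D against Ctrl on the left and B2D+FF against Ctrl+FF on the right, with red for an adjusted p under 0.05. On the left only Aldoc is red and lies below 0, and on the right 9 members are red and all lie above 0; Gapdh is left out because of its level in the fenofibrate table.

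Mdh2 (chr5:135778480-135790398 of GRCm38), Eno1 (chr4:150236721-150248879) and Aldoa (chr7:126795234-126800751) are shown with the sequence before a RefSeq start, because these 3 had the smallest adjusted p and rose in the same livers. From the RefSeq windows of 250 bases before each listed start (GRCm38.p6), the stretch free of GENCODE exons is printed 5′ to 3′ on the gene's strand, and capitals mark a motif match. For Aldoa it lies before the start of 1 of 3 RefSeq entries, inside the gene span given above and downstream of its outermost start.
Mdh2, chr5:135778399-135778479, plus strand: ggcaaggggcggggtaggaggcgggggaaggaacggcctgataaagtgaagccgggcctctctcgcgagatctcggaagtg
Eno1, chr4:150236458-150236707, plus strand: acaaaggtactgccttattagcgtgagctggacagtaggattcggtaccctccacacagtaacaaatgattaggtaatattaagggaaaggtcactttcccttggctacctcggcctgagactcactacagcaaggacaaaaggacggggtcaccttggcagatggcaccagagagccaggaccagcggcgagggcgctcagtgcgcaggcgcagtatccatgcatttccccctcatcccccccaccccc
Aldoa, chr7:126799255-126799504, minus strand: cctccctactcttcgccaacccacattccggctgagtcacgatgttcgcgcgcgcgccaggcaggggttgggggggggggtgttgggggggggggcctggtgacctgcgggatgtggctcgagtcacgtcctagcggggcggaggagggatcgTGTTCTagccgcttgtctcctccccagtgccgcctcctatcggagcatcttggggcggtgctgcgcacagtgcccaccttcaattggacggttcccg
The windows were searched on both strands for the cAMP response element TGACGTCA, the E-box CACGTG, the FOXO site TGTTTAC and the glucocorticoid half-site AGAACA, none of which contains another. Aldoa held a glucocorticoid half-site in the stretch above, written as its reverse complement. Mdh2 held the cAMP response element at chr5:135778522-135778529, before its RefSeq start but inside the first GENCODE exon, with this surrounding sequence.
Mdh2, chr5:135778512-135778539, plus strand: gagagaatcgTGACGTCAggcctcgctc
A window was listed for 31 of the 33 members and for all 9 called members. Of the 31, 2 held the cAMP response element (Ldha and Mdh2), 5 the E-box (G6pc3, Irs2, Ldha, Pcx and Pfkfb3), 1 the FOXO site (Aldoc) and 5 the half-site (Aldoa, G6pc3, Gapdh, Hk1 and Tpi1). Over the 27025 genes with a window the shares were 1.77%, 6.86%, 3.54% and 18.2% in the same order. Among the 9 called members the half-site was held by 2, the cAMP response element by 1 and the other 2 motifs by 0.

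Among the gluconeogenic genes, Pck1 rose with B2D in livers given fenofibrate and did not pass the test without it. Pck1 encodes the cytosolic phosphoenolpyruvate carboxykinase, which turns oxaloacetate into phosphoenolpyruvate, and it was the most abundant member in Ctrl livers at 1261 ± 222 FPKM (SD, n = 5). Its levels were 517, 415, 573 and 664 FPKM in Ctrl+FF and 766, 877, 1279 and 978 FPKM in B2D+FF. Every B2D+FF liver lay above every Ctrl+FF liver, with the gap between 664 and 766 FPKM. The mean was 1.797 times as high, and the log2 difference was 0.84 (SE 0.189, adjusted p = 0.0407). Without fenofibrate Pck1 measured 1296, 1342, 1528, 1221 and 919 FPKM in Ctrl and 1476, 1008, 1552, 1007 and 1260.3 FPKM in B2D. Those groups overlapped over nearly their whole range, with a difference of -0.0047 (95% CI -0.38 to 0.37).

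G6pc, the catalytic subunit of the glucose-6-phosphatase that releases free glucose, did not pass in either comparison. It measured 157, 269.7, 122, 106 and 119 FPKM in Ctrl and 214, 94.6, 156, 88.5 and 171 FPKM in B2D. Ctrl liver 2 was above every B2D liver, and B2D livers 2 and 4 were below every Ctrl liver. The difference was -0.089 (95% CI -0.73 to 0.55, adjusted p = 0.899). With fenofibrate the levels were 190.4, 147, 197 and 152 FPKM in Ctrl+FF and 238, 171, 280.2 and 171 FPKM in B2D+FF. B2D+FF livers 1 and 3 were above all Ctrl+FF livers and the other two were among them, and the difference was 0.30 (95% CI -0.11 to 0.72, adjusted p = 0.381).

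Pcx, the mitochondrial pyruvate carboxylase that makes oxaloacetate from pyruvate, measured 269, 182, 224, 235 and 203 FPKM in Ctrl and 183, 157, 201, 276 and 163 FPKM in B2D. In livers given fenofibrate it measured 211, 201, 172 and 189.7 FPKM in Ctrl+FF and 214, 138, 222 and 263 FPKM in B2D+FF. Both pairs of groups overlapped, with differences of -0.20 (SE 0.164, adjusted p = 0.538) and 0.079 (SE 0.184, adjusted p = 0.848). Fbp1, the fructose bisphosphatase that opposes phosphofructokinase, measured 757, 917, 821, 982 and 769.7 FPKM in Ctrl and 678, 704, 647, 874 and 742 FPKM in B2D. With fenofibrate its levels were 549, 429.98, 585 and 436 FPKM in Ctrl+FF and 484, 414, 652 and 591 FPKM in B2D+FF. It too overlapped in both comparisons, and its differences were -0.22 (SE 0.121, adjusted p = 0.353) and 0.09 (SE 0.169, adjusted p = 0.805).

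Slc37a4, the transporter that carries glucose 6-phosphate to the phosphatase in the endoplasmic reticulum, lay just outside the threshold in livers given fenofibrate. It ranged from 49.1 to 58.5 FPKM in Ctrl+FF and from 57.3 to 94.4 FPKM in B2D+FF, where liver 2 was the lowest and the other three were above all Ctrl+FF livers. The difference was 0.56 (SE 0.149, adjusted p = 0.0663), against -0.10 (SE 0.138, adjusted p = 0.739) without fenofibrate. G6pc3, the widely expressed phosphatase, ranged from 1.27 to 2.63 FPKM in Ctrl livers, and Pck2, the mitochondrial carboxykinase, from 0.508 to 0.742 FPKM. Neither passed in either comparison, with differences of 0.24 and -0.078 without and -0.087 and 0.041 with fenofibrate.

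The shared steps held most of the members that rose. Aldoa, aldolase A, which splits or joins the sugar bisphosphate, measured 45.9, 47.03, 44.2 and 44.05 FPKM in Ctrl+FF and 118, 69.8, 79.9 and 106 FPKM in B2D+FF. The Ctrl+FF livers lay within 3 FPKM of each other, and every B2D+FF liver was above them. The mean was 2.06 times as high, with a log2 difference of 1.00 (SE 0.157, adjusted p = 0.0112). Without fenofibrate Aldoa measured 51.9, 43.2, 49.6, 52.4 and 47.4 FPKM in Ctrl and 59.3, 47.1, 52.7, 60.1 and 44.5 FPKM in B2D. Those values overlapped, with a difference of 0.10 (SE 0.112, adjusted p = 0.666).

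Eno1, enolase 1, which makes phosphoenolpyruvate from 2-phosphoglycerate, measured 77.9, 75.99, 71.2 and 75.5 FPKM in Ctrl+FF and 117, 103, 118 and 129.8 FPKM in B2D+FF. The groups were apart, the mean was 1.56 times as high, and the log2 difference was 0.63 (SE 0.0938, adjusted p = 0.00983). Without fenofibrate Eno1 measured 101, 92.5, 113, 86.2 and 97.8 FPKM in Ctrl and 120.2, 103, 121, 168 and 90.8 FPKM in B2D. B2D liver 4 was the highest of the 10, B2D livers 2 and 5 lay among the Ctrl livers, and the difference was 0.27 (SE 0.153, adjusted p = 0.367).

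Pgam1 and Pgk1 encode phosphoglycerate mutase and phosphoglycerate kinase, which lie next to enolase in the chain. Pgam1 measured 93.99, 92.4, 85.97 and 87.01 FPKM in Ctrl+FF and 130.1, 129, 112 and 141 FPKM in B2D+FF, with no overlap and a difference of 0.50 (SE 0.09498, adjusted p = 0.0218). Without fenofibrate it measured 39.6, 42.01, 43.4, 40.97 and 39.3 FPKM in Ctrl and 46.1, 41.4, 33.7, 56.6 and 34.2 FPKM in B2D. The B2D livers spread to both sides of the Ctrl livers, and the difference was 0.02 (SE 0.137, adjusted p = 0.952). Pgk1 measured 169, 169, 173 and 153 FPKM in Ctrl+FF and 276, 217, 211 and 276 FPKM in B2D+FF, again with no overlap and a difference of 0.55 (SE 0.118, adjusted p = 0.0347). Without fenofibrate it measured 131, 187, 171, 159.7 and 158 FPKM in Ctrl and 156, 149, 165, 207 and 135 FPKM in B2D, which overlapped with a difference of 0.0023 (95% CI -0.29 to 0.30).

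Gpi1 and Tpi1, the isomerases of glucose 6-phosphate and of the triose phosphates, also rose in B2D+FF. Gpi1 measured 20.9, 19.6, 18.8 and 20.8 FPKM in Ctrl+FF and 35.98, 25.9, 27.1 and 28.96 FPKM in B2D+FF, a difference of 0.53 (SE 0.108, adjusted p = 0.0286). Tpi1 measured 119, 111, 105 and 126 FPKM in Ctrl+FF and 166, 147, 152 and 162 FPKM in B2D+FF, a difference of 0.44 (SE 0.0923, adjusted p = 0.03001). The groups were apart for both. Without fenofibrate Gpi1 measured 19.8, 17.3, 16.1, 18.3 and 18.3 FPKM in Ctrl and 23.8, 16.02, 20.3, 25.7 and 17.7 FPKM in B2D. Tpi1 measured 133, 151, 147, 122 and 159.7 FPKM in Ctrl and 171, 149, 155, 182 and 139 FPKM in B2D. Both overlapped between the diets, with differences of 0.18 (SE 0.129, adjusted p = 0.486) and 0.16 (SE 0.113, adjusted p = 0.476).

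Aldoc, aldolase C, which is known from brain, was the only member called without fenofibrate. It measured 2.53, 1.75, 2.61, 2.86 and 2.37 FPKM in Ctrl and 1.22, 1.89, 1.205, 1.39 and 1.55 FPKM in B2D. Ctrl liver 2 lay below B2D liver 2, so the groups overlapped, and the other Ctrl livers were above all B2D livers. The difference was -0.48 (SE 0.114, adjusted p = 0.0453). With 1 library removed it passed in 2 of 10 cases, without Ctrl 2 or B2D 2, and missed the threshold without any of the other eight (adjusted p up to 0.134). With fenofibrate it measured 1.64, 1.81, 1.97 and 1.25 FPKM in Ctrl+FF and 2.19, 1.597, 1.47 and 1.18 FPKM in B2D+FF, which overlapped with a difference of -0.038 (95% CI -0.33 to 0.26). Slc2a2, the bidirectional glucose transporter GLUT2 of hepatocytes, did not pass in either comparison. It ranged from 29.7 to 35.8 FPKM in Ctrl+FF and from 18.2 to 42.1 FPKM in B2D+FF, and its differences were -0.27 without and -0.20 with fenofibrate.

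**Figure D2:**
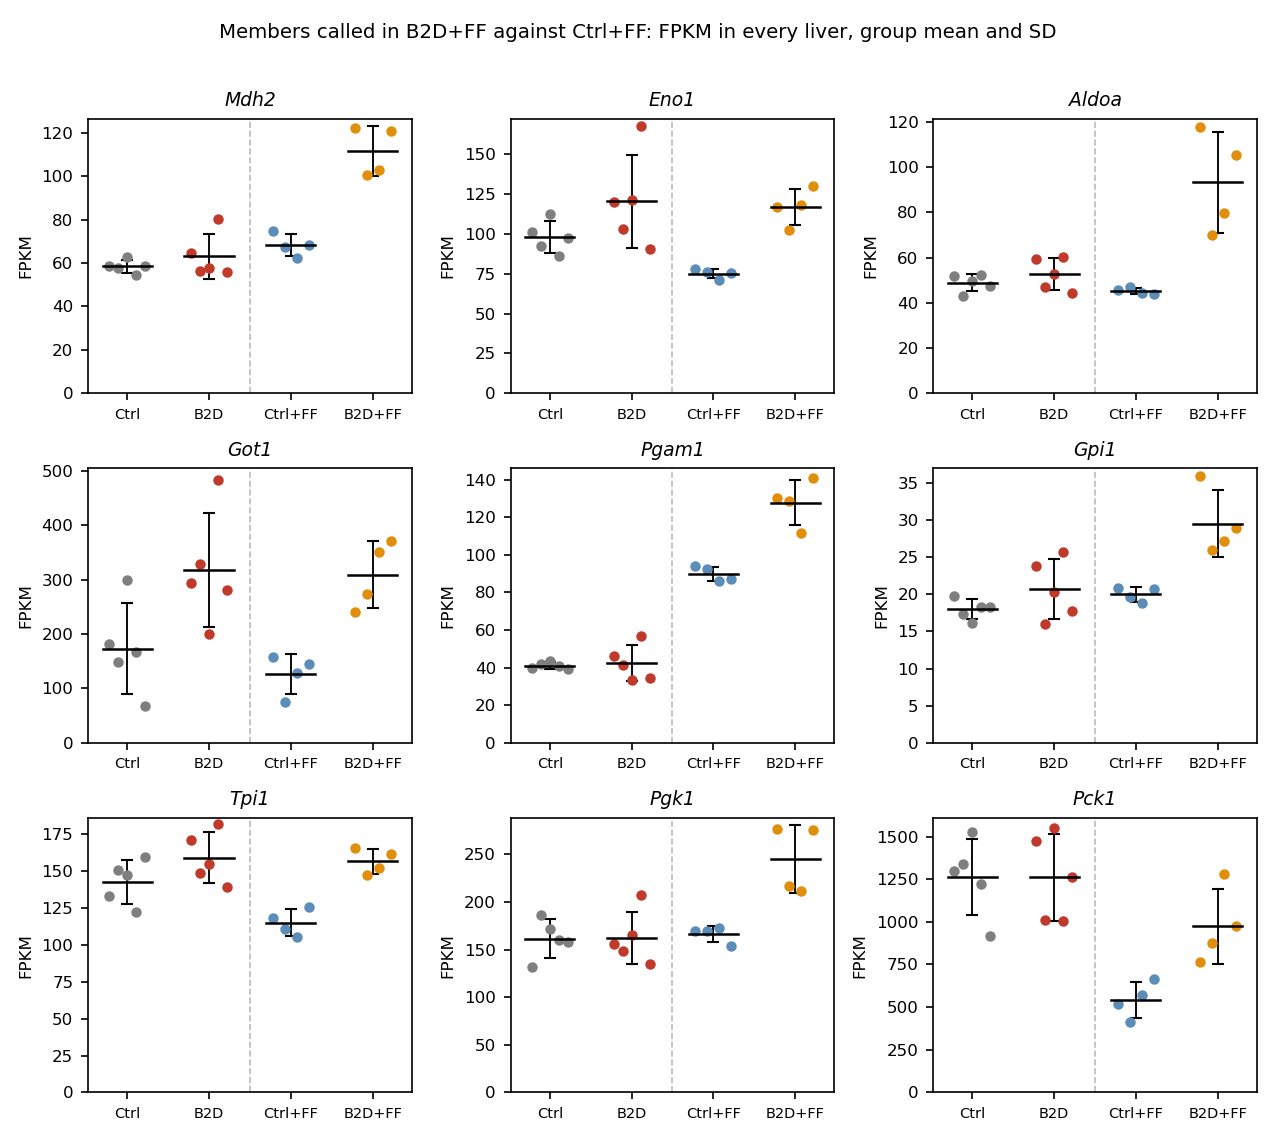
FPKM (y axis, from 0) of the 9 members called in B2D+FF against Ctrl+FF in every liver of the 4 groups (x axis). Points are livers, horizontal bars are group means and whiskers are the SD. The dashed line parts the tables, between which levels were not tested. In each panel the 4 B2D+FF livers lie above the 4 Ctrl+FF livers, while B2D and Ctrl overlap.

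Genes that carry substrate and reducing equivalents included Got1, the member with the largest difference once Gapdh is left out. Got1, the cytosolic aspartate aminotransferase of the malate-aspartate shuttle, measured 157, 75.8, 128 and 145 FPKM in Ctrl+FF and 241, 274, 349.9 and 372 FPKM in B2D+FF. The groups were apart, the mean was 2.44 times as high, and the log2 difference was 1.31 (SE 0.235, adjusted p = 0.0179). Without fenofibrate Got1 measured 181, 148, 299.9, 167 and 67.3 FPKM in Ctrl and 294, 328, 200.5, 483 and 281 FPKM in B2D. All 5 B2D livers were above every Ctrl liver but the third, and the difference of 0.97 (SE 0.337, adjusted p = 0.161) did not pass.

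Mdh2, the mitochondrial malate dehydrogenase, had the smallest adjusted p of the members. It measured 74.8, 67.6, 62.4 and 68.3 FPKM in Ctrl+FF and 122, 100.5, 103 and 121 FPKM in B2D+FF. Every B2D+FF liver was above 100 FPKM and every Ctrl+FF liver below 75, with a mean 1.63 times as high and a difference of 0.70 (SE 0.103, adjusted p = 0.00896). Without fenofibrate it measured 58.7, 57.8, 62.8, 54.5 and 58.5 FPKM in Ctrl and 64.7, 56.3, 57.9, 80.4 and 56.1 FPKM in B2D, which overlapped with a difference of 0.10 (SE 0.114, adjusted p = 0.693). Mdh1, the cytosolic enzyme, did not overlap between B2D+FF (256 to 306 FPKM) and Ctrl+FF (200.5 to 234 FPKM) but missed the threshold, with a difference of 0.33 (SE 0.0998, adjusted p = 0.0957). Ldha, the lactate dehydrogenase subunit, ranged from 169 to 196 FPKM in Ctrl+FF and 186 to 275 FPKM in B2D+FF, a difference of 0.37 (SE 0.137, adjusted p = 0.158). The mitochondrial aminotransferase Got2, the alanine aminotransferase Gpt and the glycerol 3-phosphate dehydrogenase Gpd1 did not pass either, with differences of 0.11, 0.21 and -0.068 with and 0.003, -0.31 and 0.12 without fenofibrate.

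The glycolytic genes of committed steps did not pass in either comparison. Pfkl, the liver phosphofructokinase, measured 4.41, 3.78, 3.06, 3.55 and 3.45 FPKM in Ctrl and 3.94, 2.42, 2.68, 2.09 and 2.25 FPKM in B2D. All but B2D liver 1 lay below every Ctrl liver, and the difference was -0.35 (SE 0.131, adjusted p = 0.179). It passed only in the fit without B2D liver 1. With fenofibrate Pfkl measured 3.76, 4.05, 2.72 and 3.87 FPKM in Ctrl+FF and 4.94, 3.38, 3.41 and 4.93 FPKM in B2D+FF, which overlapped with a difference of 0.16 (SE 0.142, adjusted p = 0.557). Pfkm, a phosphofructokinase gene outside the members, had a higher mean than Pfkl in every group. It averaged 4.11 FPKM in Ctrl and 4.55 FPKM in B2D, a difference of 0.115 (SE 0.108, adjusted p = 0.600). With fenofibrate it averaged 3.92 FPKM in Ctrl+FF and 4.51 FPKM in B2D+FF, a difference of 0.17 (SE 0.107, adjusted p = 0.396).

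Pklr, the pyruvate kinase of liver and red cells, measured 21.5, 16.4, 10.8, 14.04 and 17.2 FPKM in Ctrl and 16.7, 14.03, 17.4, 24.8 and 10.2 FPKM in B2D. With fenofibrate its levels were 9.98, 7.999, 11.8 and 7.22 FPKM in Ctrl+FF and 12.05, 11.8, 10.3 and 6.11 FPKM in B2D+FF. The diets overlapped in both, with differences of 0.032 (95% CI -0.44 to 0.50) and 0.091 (95% CI -0.38 to 0.57). Pkm, the pyruvate kinase of most other tissues, ranged from 1.64 to 2.56 FPKM in Ctrl livers. Pfkfb1 and Pfkfb3 make or remove the fructose bisphosphate that activates phosphofructokinase. Pfkfb1 ranged from 11.01 to 13.9 FPKM in Ctrl and from 4.39 to 13.03 FPKM in B2D, a difference of -0.46 (SE 0.206, adjusted p = 0.256), and Pfkfb3 from 0.989 to 1.91 and 0.927 to 4.35 FPKM. None of these 3 genes passed in livers given fenofibrate, with differences of -0.19, -0.11 and 0.07.

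The control genes showed no call. Ppargc1a, the coactivator PGC-1α that a fast induces, measured 2.405, 2.23, 7.21, 3.41 and 2.80 FPKM in Ctrl and 4.28, 6.74, 5.64, 7.35 and 4.54 FPKM in B2D. Ctrl liver 3 stood at the level of the highest B2D livers, all other Ctrl livers were below every B2D liver, and the difference of 0.61 (SE 0.236, adjusted p = 0.195) passed only in the fit without Ctrl 3. With fenofibrate it measured 1.23, 1.78, 1.72 and 2.69 FPKM in Ctrl+FF and 1.91, 4.42, 3.797 and 4.44 FPKM in B2D+FF. B2D+FF liver 1 lay among the Ctrl+FF livers and the other three above them, and the difference of 0.68 (SE 0.218, adjusted p = 0.111) passed only in the fit without B2D+FF 1 among those that left out a library.

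Foxo1, the forkhead factor that insulin signalling keeps out of the nucleus, measured 5.18, 3.37, 4.88, 4.09 and 4.87 FPKM in Ctrl and 4.41, 4.92, 6.79, 6.94 and 5.53 FPKM in B2D. With fenofibrate its levels were 3.55, 3.43, 3.27 and 5.21 FPKM in Ctrl+FF and 3.902, 5.03, 5.72 and 5.15 FPKM in B2D+FF. The groups overlapped in both, and the differences were 0.29 (SE 0.135, adjusted p = 0.279) and 0.30 (SE 0.1397, adjusted p = 0.261). Irs2, the insulin receptor substrate of liver, measured 5.71, 3.98, 4.11, 2.95 and 3.74 FPKM in Ctrl and 4.003, 2.61, 5.63, 4.18 and 6.297 FPKM in B2D. In the fenofibrate table it measured 6.37, 6.11, 5.54 and 4.12 FPKM in Ctrl+FF and 6.77, 3.54, 7.31 and 4.67 FPKM in B2D+FF. Its groups overlapped as well, with differences of 0.10 (95% CI -0.31 to 0.51) and -0.02 (95% CI -0.47 to 0.43).

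**Figure D3:**
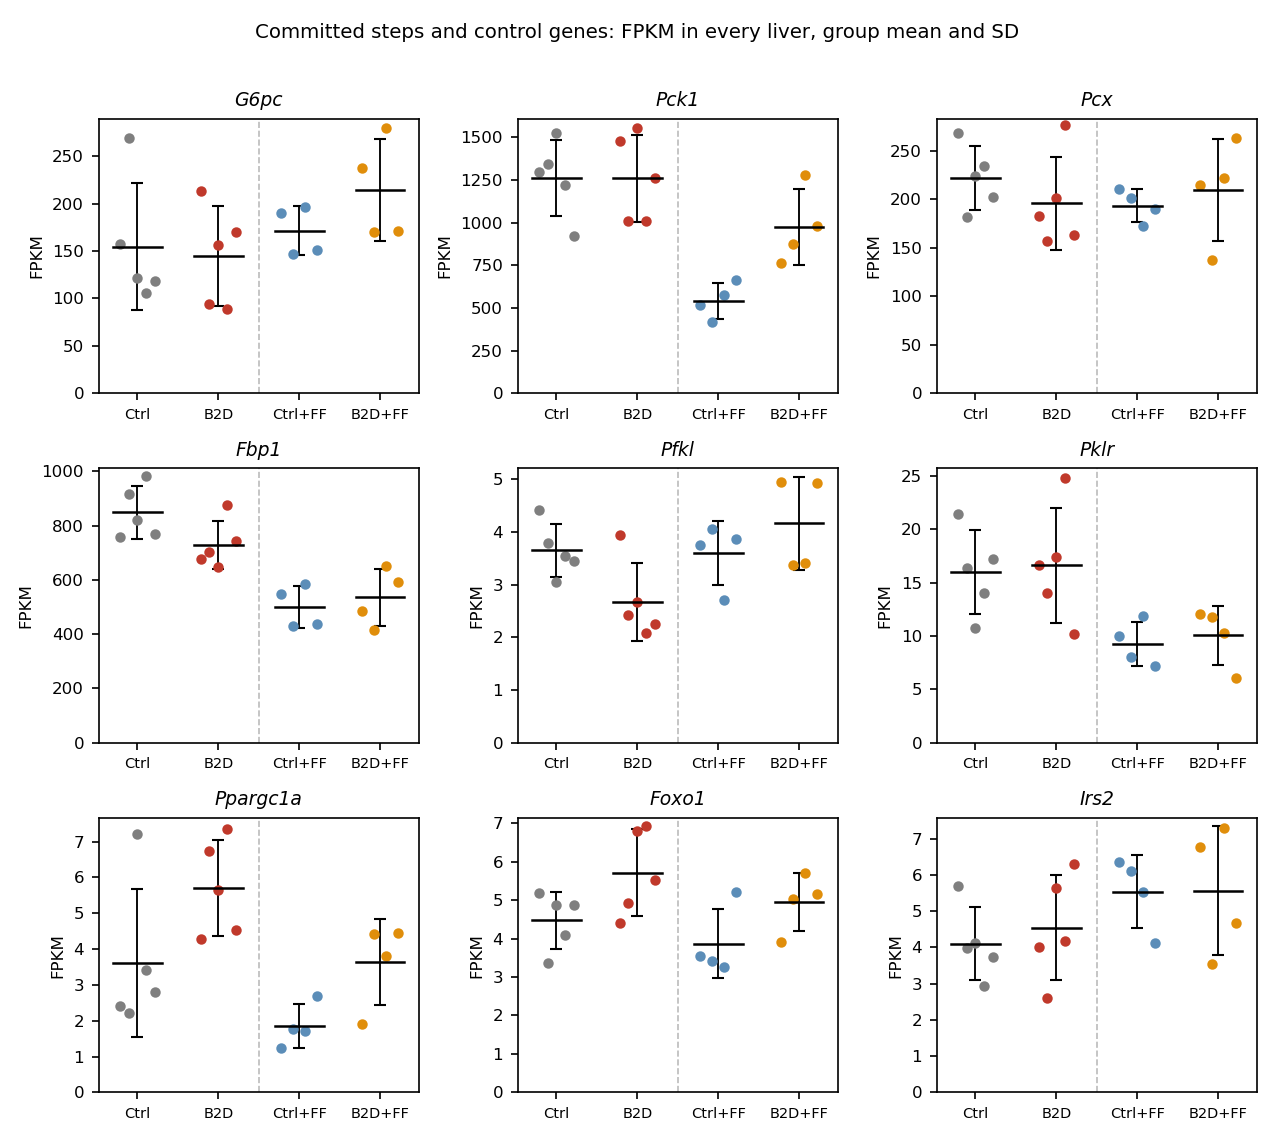
FPKM (y axis, from 0) of 6 committed-step genes and 3 control genes in every liver of the 4 groups (x axis); points are livers, horizontal bars are group means and whiskers are the SD, and the dashed line parts the tables. Diets overlap in every panel on both sides of the line, except for Pck1 in livers given fenofibrate.

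Opposing enzymes were also compared within each liver, since a ratio of FPKM inside a library does not depend on its scaling. On the log2 scale Pck1 over Pklr measured 5.696, 5.697, 5.597 and 6.52 in Ctrl+FF and 5.99, 6.21, 6.96 and 7.32 in B2D+FF. The means were 5.88 ± 0.433 and 6.62 ± 0.625 (SD, n = 4 each), a difference of 0.743 with an exact permutation p of 0.143 (two-sided, adjusted p = 0.286 over 6 tests). Ctrl+FF liver 4 lay among the B2D+FF livers. Fbp1 over Pfkl measured 7.42, 7.92, 8.07, 8.11 and 7.80 in Ctrl and 7.43, 8.18, 7.92, 8.71 and 8.37 in B2D. It measured 7.19, 6.73, 7.75 and 6.82 in Ctrl+FF and 6.61, 6.94, 7.58 and 6.91 in B2D+FF. The diets overlapped in both, with differences of 0.255 without and -0.112 with fenofibrate and exact permutation p of 0.341 and 0.714. Pfkm is not part of that ratio, so it does not cover the whole phosphofructokinase step. Pck1 over Pklr without fenofibrate differed by -0.0376, with an exact permutation p of 0.921. The smallest p the design allows is 0.00794 without and 0.0286 with fenofibrate.

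**Figure D4:**
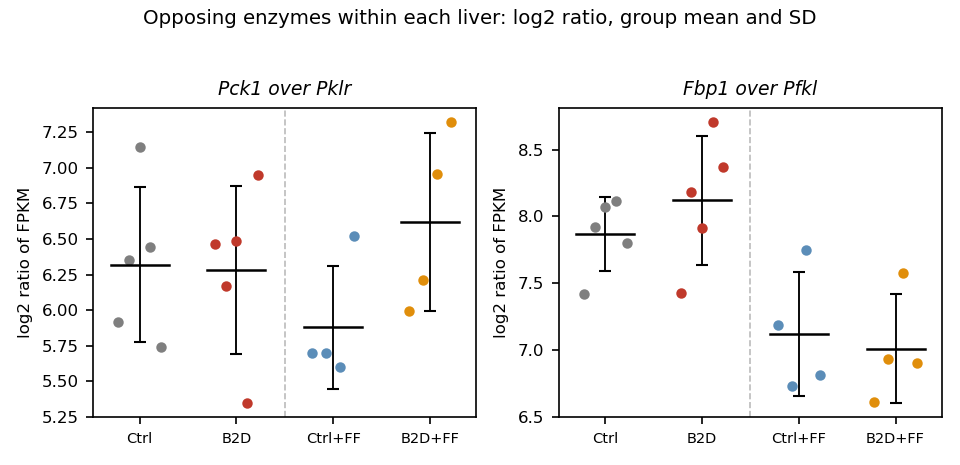
Log2 ratio of FPKM (y axis) of a gluconeogenic over the opposing glycolytic gene within every liver of the 4 groups (x axis); points are livers, horizontal bars are group means and whiskers are the SD. The groups compared overlap in each panel on both sides of the dashed line, and the Pck1 over Pklr means are 6.32 in Ctrl, 6.28 in B2D, 5.88 in Ctrl+FF and 6.62 in B2D+FF.

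Whether B2D acted differently in the experiment with fenofibrate was tested as the difference of the diet differences, in a fit of all 18 libraries. No member passed by limma, at 0.0816% of 11031 genes called higher and 0.0635% called lower. At an unadjusted p under 0.05 the members counted 12 higher, Gapdh among them, and 0 lower, against 6.79% and 5.11% of all genes. The difference was 0.90 (SE 0.189, adjusted p = 0.0664) for Aldoa, 0.60 (SE 0.152, adjusted p = 0.123) for Mdh2 and 0.84 (SE 0.263, adjusted p = 0.205) for Pck1. For Got1 it was 0.35 (SE 0.464, adjusted p = 0.797), and the diet difference of Got1 without fenofibrate was 0.97. Of the 31 members 26 had a larger difference with fenofibrate, or 25 of 30 without Gapdh. So had 5835 of the 11031 genes tested and 653 of the 918 genes with a mean of at least 50 FPKM. The median was 0.35 over the members, 0.0165 over all genes tested and 0.158 over those 918 genes. Aldoa passed in the fits without B2D 1 or B2D+FF 2, and Mdh2 in the fit without B2D 4. By voom on the recovered reads Aldoa passed, and with array weights Aldoa and Pck1 passed. Members called with fenofibrate are therefore not shown to differ in their response from livers without it.

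Groups that did not overlap were counted for all members as well. With fenofibrate 11 of the 31 members were apart and higher in B2D+FF and none was apart and lower, against 7.82% and 6.44% of all genes tested. They were the 9 called members, Mdh1 and Gapdh. Among the 979 genes with a mean of at least 50 FPKM, 104 were apart and higher and 81 apart and lower. Without fenofibrate no member was apart in either direction, against 2.08% and 2.89% of all genes. Leave-outs bore on the calls. Mdh2, Eno1, Aldoa and Got1 passed whichever of the 8 libraries was removed, whereas Pgam1, Gpi1, Tpi1, Pgk1 and Pck1 were all lost without Ctrl+FF 1, 2 or 3 or without B2D+FF 4, which left 4 members called. Without Ctrl+FF 4 the losses were Gpi1, Pgam1 and Pgk1, without B2D+FF 1 they were Pgam1, Pgk1 and Tpi1, and without B2D+FF 2 or 3 only Pck1 was lost. Members also moved with the mouse. Of 30 members without Gapdh, 17 had their highest B2D value in liver 4, and 18 had their lowest B2D+FF value in liver 2.

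Other genes of glucose metabolism were counted from 6 lists. Like the members, the lists were chosen with earlier results of these data known, so their counts are no separate support. Of the 27 tested genes for the entry of glycerol, lactate, fructose and amino acids, 6 were higher and 0 lower in B2D+FF, against 2.24% and 2.21% of all genes, which is the background for the other lists too. The glycerol channel Aqp3 averaged 6.31 FPKM in Ctrl+FF and 17.3 FPKM in B2D+FF, a log2 difference of 1.34 (SE 0.222, adjusted p = 0.0136). Slc25a12, an aspartate-glutamate carrier of the mitochondrial membrane, averaged 1.88 FPKM in Ctrl+FF and 3.065 FPKM in B2D+FF, a difference of 0.49 (SE 0.0825, adjusted p = 0.01395). Slc25a13, the other such carrier in the list, averaged 87.5 and 82.45 FPKM and did not pass (-0.11, SE 0.147, adjusted p = 0.722). The tyrosine aminotransferase Tat differed by 1.35 (SE 0.248, adjusted p = 0.0188). Of 12 genes for pyruvate carriers and pyruvate dehydrogenase control 2 were higher and 0 lower. These were Pdhx and Dlat, subunits of the dehydrogenase complex, with differences of 0.42 (SE 0.0876, adjusted p = 0.0294) and 0.39 (SE 0.0851, adjusted p = 0.0364). Of 26 glycogen and galactose genes 2 were higher and 0 lower, namely Pgm3, a phosphoacetylglucosamine mutase, at 0.72 (SE 0.144, adjusted p = 0.0264) and the glycogen-binding Stbd1 at 0.44 (SE 0.0954, adjusted p = 0.0355).

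Of 42 tested genes of hormone and transcription control 2 were higher and 3 lower in B2D+FF. Srebf1, which encodes the lipogenic factor that insulin induces, averaged 27.9 FPKM in Ctrl+FF and 9.69 FPKM in B2D+FF, a difference of -1.45 (SE 0.141, adjusted p = 0.00206). Mlxipl, the carbohydrate-responsive factor ChREBP that drives Pklr, averaged 31.0 and 16.97 FPKM, a difference of -0.84 (SE 0.0926, adjusted p = 0.00269). Trib3, a pseudokinase that binds the insulin-signalling kinase AKT, rose by 0.91 (SE 0.159, adjusted p = 0.0164). None of the 15 isoenzyme genes or the 9 pentose phosphate genes passed. Without fenofibrate 1 entry gene, Slc25a13, was lower at -0.47 (SE 0.105, adjusted p = 0.0381), 1 glycogen and galactose gene, Galm, was lower at -0.61 (SE 0.122, adjusted p = 0.0259), and the leptin receptor gene Lepr was higher at 1.89 (SE 0.316, adjusted p = 0.0112). Lepr was also the other higher gene of its list in B2D+FF, at 1.33 (SE 0.248, adjusted p = 0.0204). The other 3 lists had no call without fenofibrate.

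Markers of other cell types moved between the same groups. In B2D+FF the called markers were Alas2 (erythroid, difference -1.37) and Cfd (adipocyte, -2.21), which were lower, and Cidec (adipocyte), Tat (hepatocyte), Lyve1 (sinusoidal endothelium), Retnlg (neutrophil) and Rrm2 (proliferating cells), which were higher. The other 7 of the 8 sinusoidal endothelial markers had negative differences, with a median of -0.142 over the list. The summed level of the 6 erythroid markers was 437 to 630 FPKM in Ctrl+FF and 284 to 690 FPKM in B2D+FF, and that of the 10 Kupffer cell markers 111 to 208 and 72.8 to 191 FPKM. The 6 skeletal muscle markers summed to at most 0.721 FPKM in Ctrl+FF and 2.68 FPKM in B2D+FF, with Mb at 0 in both. In B2D the Kupffer cell markers C1qa (-0.50) and Clec4f (-0.47) and the erythroid Alas2 (-1.36) were lower, and the summed Kupffer cell markers were 135 to 173 FPKM in Ctrl and 103 to 153 FPKM in B2D. Reads of mitochondrially encoded genes made up 8.02% to 9.27% of the libraries in Ctrl+FF and 6.71% to 8.78% in B2D+FF. Without fenofibrate they made up 5.22% to 6.59% in Ctrl and 5.82% to 9.41% in B2D, where 4 of the 5 livers were above every Ctrl liver. The part of these cell types and of depth in the members' differences was not tested.

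Levels of the members differed between the tables, in a way that cannot be told apart from drug, time on diet or processing. Ctrl and Ctrl+FF averaged 1261 and 542 FPKM for Pck1, 849 and 499.9 FPKM for Fbp1, and 455 and 188 FPKM for Ldha. Pgam1 went the other way, at 41.1 and 89.8 FPKM, while G6pc was at 155 and 172 FPKM and Pcx at 222 and 194 FPKM.

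Gapdh stood apart from all other members in this respect. It was listed at 295, 244, 295, 234 and 256 FPKM in Ctrl and 304, 233, 270.2, 412 and 236 FPKM in B2D, but at 1.28, 1.34, 1.73 and 1.93 FPKM in Ctrl+FF and 2.64, 3.95, 31.4 and 12.03 FPKM in B2D+FF. That is 16438 to 33056 reads in the first table and 87 to 2688 in the second. In the annotation 24.7% of the 50-base stretches of Gapdh also occur in 138 pseudogene rows, which together held 67 to 124 reads in the first table and 346 to 610 in the second. The pseudogene rows thus held fewer reads in both tables than the Gapdh row held in the first, and the part of shared sequence in the difference between the tables was not tested. The Gapdh level is therefore uncertain, and its difference between B2D+FF and Ctrl+FF, 1.87 (SE 0.582, adjusted p = 0.104), was not read as a result. Gapdh is still counted in the figures over all members tested, except where it is said to be left out.

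Of the called members Pgk1, Pgam1, Eno1, Gpi1, Tpi1 and Aldoa share 53.9%, 36.2%, 19.0%, 8.2%, 4.2% and 4.1% of their 50-base stretches with pseudogene rows. Those rows held at most 1.57% as many reads as the member in any library, and with their reads added the same 9 members were called. So few added reads could hardly change a call, and any effect of shared sequence beyond those rows was not tested. Mdh2, Got1 and Pck1 share no such stretch with any gene. Tpi1 overlaps Spsb2 on the other strand (5.88 and 3.70 FPKM in the first and second table), and Aldoa overlaps Fam57b (0.0647 and 0.115 FPKM), and whether the counting used strand is not given in the sources used here. A second row named Aldoa never exceeded 7 reads and was not used.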

How the data were processed

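Liver mRNA was sequenced from 18 mice, 1 library per mouse, in 2 tables. Per the submitters' processing notes the authors used STAR, featureCounts, mm10 and DESeq2. The deposited values are FPKM, and how each table was scaled is not given in the sources used here. Tests therefore stayed within a table except for the difference of the diet differences. From FPKM and gene length, 100.0% of values gave whole reads within 0.05 reads, which gave the depths. log2(FPKM + 1) was tested with limma 3.58.1 in R 4.3.3 (trend, mean FPKM of at least 0.5, Benjamini-Hochberg over all genes, threshold 0.05). On the whole reads, voom called 392 genes without and 705 with fenofibrate. p-values set a difference between groups against the spread between mice, and in limma that spread is moderated over all genes tested. Intervals of differences are 95% confidence intervals.

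The members and lists were chosen with earlier results of these data known. Named with the value in every library were the members past the threshold and 9 genes of committed steps and control, and from each pathway list up to 3 called genes with the smallest adjusted p. Pfkm was named because of its level beside Pfkl. Sharing of sequence was counted over stretches of 50 bases of the annotated transcripts. Ratios were tested by exact permutation, with p adjusted over 6 tests, of which those of 1 ratio are not reported here. The fits were tested on simulated data with known changes. Alternatives were a pseudocount of 0.1, no filter, a minimum of 5 FPKM, upper-quartile and quantile scaling, array weights, voom, a fit of all 4 groups and leaving out each library. Adding the reads of pseudogene rows was chosen after seeing the data. Promoter windows came from RefSeq (GRCm38.p6).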

Additional observations from a re-analysis of the deposited data

Results flagged for a closer look

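Of 120 group and member combinations examined for a library far from the rest of its group, 5 stood out, where chance gives about 1 in 20. Slc37a4 was highest in Ctrl 3 at 113.8 FPKM, against 82.83 to 91.71 FPKM in the other Ctrl livers. The same liver held the highest Ppargc1a of its group at 7.215 FPKM, against 2.225 to 3.409 FPKM. Pkm was highest in B2D 2 at 3.807 FPKM, against 2.071 to 2.377 FPKM in the other B2D livers. Ldha was lowest in Ctrl+FF 3 at 168.9 FPKM, against 193.0 to 195.8 FPKM. Foxo1 was highest in Ctrl+FF 4 at 5.209 FPKM, against 3.274 to 3.552 FPKM in the other Ctrl+FF livers.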

How the results depend on the processing

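With fenofibrate, 9 members were called, with 5 in a fit with no filter on low values (Got1, Gpi1, Pgk1 and Pck1 lost), 8 after upper-quartile scaling and 10 to 12 with a minimum of 5 FPKM, quantile scaling, voom, array weights or all 4 groups. Gapdh was among those called with array weights and in the fit of all 4 groups. Quantile scaling lost Tpi1. Slc37a4 was gained with a minimum of 5 FPKM, quantile scaling, voom and array weights. Mdh1 was gained with quantile scaling and voom, and Ppargc1a with array weights. Leaving out 1 library gave 4 to 10 members and 175 to 596 genes. The genes called were 529, against 272 with no filter and 885 with array weights. Without fenofibrate 1 member was called, against 0 with no filter, upper-quartile scaling, voom, or a minimum of 5 FPKM (Aldoc then not tested), and 0 to 1 when a library was left out. The genes called were 313, against 67 with no filter, 727 in a fit of all 4 groups and 98 to 332 when a library was left out. For the difference of the diet differences 16 genes and 0 members were called, against 6 genes with a minimum of 5 FPKM, 112 genes and 2 members with array weights, and 1 member by voom. Leaving out 1 library there gave 8 to 44 genes and 0 to 1 members. No filter adds genes and leave-outs remove samples, and the cause of the other changes was not tested. No member called in a diet comparison changed direction in the comparison that called it.

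The reversals were of differences that no setting called. Between B2D and Ctrl, quantile scaling gave 0.0301 for G6pc, 0.0355 for Slc37a4, 0.0274 for Pck1, 0.168 for Ldha and 0.0277 for Mdh1, and Pck1 was 0.0271 after upper-quartile scaling and 0.0331 by voom. Leaving out 1 library gave -0.249 to 0.133 for G6pc, -0.114 to 0.0703 for Pck1, -0.089 to 0.0642 for Pgk1, -0.0884 to 0.0948 for Pgam1, -0.119 to 0.182 for Pklr, -0.00886 to 0.245 for Irs2, and -0.204 to 0.197 for Pck1 over Pklr. Between B2D+FF and Ctrl+FF it gave -0.0439 to 0.266 for Pcx, -0.0123 to 0.206 for Fbp1, -0.14 to 0.0435 for Aldoc, -0.00854 to 0.29 for Pklr, -0.147 to 0.144 for Irs2, and -0.302 to 0.0973 for Fbp1 over Pfkl. These reversals were listed for 21 members. Outside those 21, leave-outs gave -0.0589 to 0.0518 for Got2 and -0.0232 to 0.182 for Gapdh between B2D and Ctrl. Between B2D+FF and Ctrl+FF they gave -0.376 to 0.0131 for Slc2a2, -0.00406 to 0.0719 for Pck2 and -0.0576 to 0.166 for Pfkfb3.

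No paired analysis was possible because the mice of different groups share no number. At this depth Hk1 (at most 0.434 FPKM) and Pfkp (at most 0.337 FPKM) were below the filter.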
